A study of Mus musculus with 10 samples.

Results

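The nuclear-encoded genes of the respiratory chain and of ATP synthase were examined in the midbrain of mice with collagen-induced arthritis and of control mice. A probe was a member if the platform's probe table gave it a single gene symbol beginning with Nduf, Uqcr, Atp5 or Cox followed by a digit, or if that symbol was Cyc1 or Sdha to Sdhd. This gave 62 of the 10080 probes on the array, for 60 genes. Complex I held 28 probes for 27 genes, complex II 1 probe, complex III 8 probes for 7 genes, complex IV 16 probes for 16 genes and complex V, the ATP synthase, 9 probes for 9 genes. The rule read names and no measured value. It also took in assembly factors and 1 pseudogene, Ndufs5-ps, which are no subunits, and it counted Ndufa4 with complex I although that protein is now assigned to complex IV.

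RNA of collagen-injected mice and RNA of control mice were labelled with Cy3 and Cy5 and hybridised together to each of 10 oligonucleotide arrays printed in house. Both groups were male DBA/1 mice, an inbred strain that is susceptible to arthritis after immunisation with type II collagen, and both were 8 weeks old at injection. Complete Freund's adjuvant was injected into the skin of both groups: 100 ul together with 100 ul of type II collagen in the collagen group, and 200 ul without collagen in the controls. Both groups also received lipopolysaccharide on day 24, so all animals compared had adjuvant and lipopolysaccharide, and the groups differed in collagen and in the volume of adjuvant. The time of death is labelled 31 with an unclear unit, and the labels do not say how many mice contributed to an RNA. The arrays form 5 dye-swap pairs, in which collagen RNA was in Cy5 on 1 array and in Cy3 on the other. Replicates 1 and 2 had 2 pairs each and replicate 3 had 1 pair. Arrays with the same replicate number were averaged, since they were taken to repeat 1 pair of RNAs, which leaves n = 3.

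Values are log2 ratios of collagen over control, so a value below 0 means less signal from collagen RNA. Which scanner channel held which dye is not stated. Channel A was taken as Cy3 and channel B as Cy5 from the order in which the labels name the dyes, and no value in the files settles it. With the opposite assignment every sign given here would turn. In whole tissue, fewer cells of a type and less RNA per cell cannot be told apart.

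The respiratory chain passes electrons from NADH and succinate to oxygen and pumps protons across the inner mitochondrial membrane, and ATP synthase uses the resulting gradient to make ATP. Complex I accepts electrons from NADH, complex II from succinate, complex III hands them to cytochrome c and complex IV passes them to oxygen. Neurons depend on this pathway for most of their ATP, and inhibitors of complex I are known to injure the dopamine neurons of the midbrain. Mitochondrial DNA encodes some subunits of complexes I, III, IV and V, and none of those genes is among the members.

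Midbrain tissue gave a ratio for most of these genes. Of the 62 probes, 55 were measured in all 3 replicates and could be tested, or 88.71%, against 41.06% of all probes. They stand for 54 genes, and 30 of the member probes had a ratio on every array. The 7 probes that were not tested were those of Ndufa3, Cyc1, Cox6a2, Cox7a1, Cox7b2 and Cox8b and a second probe of Ndufb4. Across the series 4496 to 8425 probes were measured on an array and 35 to 61 of the member probes. The dopamine neuron genes Th, Ddc, Nr4a2, En1 and Pitx3 were all measured in the 3 replicates, as were 6 genes of neurons in general.

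No respiratory chain or ATP synthase gene passed the test between collagen and control mice. With limma and a Benjamini-Hochberg adjusted p under 0.05, 0 of the 54 genes were called, against 0% of the 4139 probes tested, and the smallest adjusted p was 0.827. A mean over 0.2 in size together with 1 sign in all 3 replicates was found for 3 genes below 0, or 5.56%, against 4.52% of all probes, and for 0 above, against 2.73%. At an unadjusted limma p under 0.05, 3 genes were below 0, against 2.73% of all probes, and 0 genes were above 0, against 1.21%. Both counts of 3 were made up of Ndufaf3, Ndufs7 and Ndufa8, all of complex I. The mean ratio was below 0 for 39 genes and above 0 for 15. The 39 genes are 72.22% of the tested members, against 59.2% of all probes. With each replicate centred on the median of all tested probes, 28 of the 54 were below 0 and the members' median was -0.0044. A value below 0 in all 3 replicates was found for 13 genes, or 24.07%, against 20.8% of all probes. A value above 0 in all 3 was found for 0 genes, against 8.92%. That count was 3 with median centring in place of loess, 3 with loess within printing blocks and 2 without background correction. The median ratio was -0.0316 for the members and -0.0250 for all probes.

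These small ratios came with narrow intervals. The 95% interval of the mean lay within a 2-fold change in either direction for 54 of 54 genes, against 99.3% of all probes. It lay within a 1.5-fold change for 53 of them, against 93.2% of all probes, and Ndufaf3 was the exception. The lowest bound of any member was -0.67 and the highest 0.50. The median SD over replicates was 0.13 for the members and 0.14 for all probes. The intervals and the limma p-values cover spread between these 3 replicates and no other source of error. For both, limma draws the variance of each gene toward a value shared by all tested probes. Intervals of widely spread genes are thus narrower than their own 3 values would give. Cox7c had an SD of 0.41 and a limma standard error of 0.16, and Ndufa7 had 0.02 and 0.07.

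Promoter sequences from RefSeq on build GRCm38.p6 were set beside the genes, because nuclear-encoded respiratory genes are known to share binding motifs of a few transcription factors. Each window ran from 250 bases before the gene's start to 50 bases from it. A window was found for 50 of the 60 genes, 53 windows in all. Both strands were searched. The letters GCATGCGC, a core of the palindrome that NRF-1 binds, an activator of respiratory genes, were in 10 of the 53 windows, or 18.87%, against 2.71% of 32851 windows of all genes and 3.52% of the 21263 of protein-coding genes. Because the site is a palindrome, matches on both strands can overlap. The ETS core CCGGAAG, which the respiratory gene activator GABP binds, was in 14 windows, or 26.42%. Its share was 8.86% over all genes and 11.56% over protein-coding genes. The YY1 motif AAGATGGC was in 7 windows, or 13.21%, against 2.75% over all genes and 3.05% over protein-coding genes. The TATA box TATAAA was in 6 windows, or 11.32%, against 13.62% over all genes and 12.60% over protein-coding genes. The spellings were chosen with the members' counts known, so these shares are a description. The 10 tested genes with GCATGCGC had a median ratio of -0.01, and the 36 tested genes with a window that lacked it had -0.04. Positions below count from the gene's start, and negative ones lie before it.

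Complex I had the genes farthest from 0. Of its 26 tested genes, 19 had a mean below 0, against 59.2% of all probes, and 7 above. The median was -0.04, and the replicate medians were -0.09, -0.11 and -0.02. With each replicate centred on the median of all tested probes, the complex I median was -0.0134. In all 3 replicates 8 genes were below 0, against 20.8% of all probes. Those 8 genes were Ndufaf3, Ndufs7, Ndufa8, Ndufaf7, Ndufb10, Ndufa7, Ndufaf2 and Ndufb5.

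Ndufaf3, an assembly factor that helps to build complex I and is not part of the finished enzyme, had log2 ratios of -0.68, -0.28 and -0.25 in the 3 replicates. All 3 were below 0, and replicate 1 was the lowest. The mean was -0.40 ± 0.24 (SD, n = 3), a fold of 0.758, with an interval of -0.67 to -0.13 and an adjusted limma p of 0.827. The low value of replicate 1 came from a single array. On the first pair Ndufaf3 was at -3.11 with collagen in Cy5 and at 0.38 with collagen in Cy3, and on the other pair of that replicate at 0.34 and -0.33. The arrays of replicate 1 differed in sign. The second pair of replicate 1 averaged 0.0086, so the shared sign over the 3 replicates rested on the first pair, which held the array at -3.11. The mean of Ndufaf3 was -0.26 without replicate 1 and -0.14 with median centring in place of loess. Its probe was among the dimmer ones. With the dimmer probes left out 51 member genes were tested, and Ndufaf3 was not one of them.

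Ndufs7 encodes a core subunit that carries an iron-sulphur cluster close to the ubiquinone site. Its ratios were -0.16, -0.41 and -0.13, all below 0, with replicate 2 the lowest. The mean was -0.23 ± 0.15 (SD, n = 3) and the adjusted limma p 0.827. Here too 1 array stood apart: with collagen in Cy5 the first pair of replicate 2 gave -1.73, and the other Cy5 arrays lay between -0.20 and 0.26. The mean of Ndufs7 was -0.14 without replicate 2, -0.08 with the second pair of replicates 1 and 2 and -0.10 without spots that had saturated pixels.

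Ndufa8, an accessory subunit on the side of the intermembrane space, had ratios of -0.15, -0.17 and -0.38. All 3 were below 0, and replicate 3 was the lowest. The mean was -0.23 ± 0.12 (SD, n = 3) with an adjusted limma p of 0.827. On its single arrays the ratio went with the dye. The 5 arrays with collagen in Cy5 lay between -0.09 and 0.34, and the 5 with collagen in Cy3 between -0.66 and -0.40. Channel B over A averaged 0.34 for Ndufa8, with an adjusted limma p of 0.156, and with median centring in place of loess the collagen ratio of Ndufa8 was -0.03.

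The promoters of Ndufa8 and Ndufs7 are shown because both genes are among the 3 farthest below 0 and carry different motifs. Capitals mark motif matches. Ndufa8 lies on the minus strand at chr2:36049289-36049588 and has GCATGCGC starting at position -8. Ndufs7 lies on the plus strand at chr10:80249199-80249498 and has TATAAA at position -99 and AAGATGGC at position 24.
Ndufa8: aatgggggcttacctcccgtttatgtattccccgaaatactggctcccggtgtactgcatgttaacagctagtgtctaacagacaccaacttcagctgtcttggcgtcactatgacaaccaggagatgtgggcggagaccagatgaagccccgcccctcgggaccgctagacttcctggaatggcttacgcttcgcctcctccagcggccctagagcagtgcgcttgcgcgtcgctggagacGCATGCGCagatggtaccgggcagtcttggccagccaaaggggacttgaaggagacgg
Ndufs7: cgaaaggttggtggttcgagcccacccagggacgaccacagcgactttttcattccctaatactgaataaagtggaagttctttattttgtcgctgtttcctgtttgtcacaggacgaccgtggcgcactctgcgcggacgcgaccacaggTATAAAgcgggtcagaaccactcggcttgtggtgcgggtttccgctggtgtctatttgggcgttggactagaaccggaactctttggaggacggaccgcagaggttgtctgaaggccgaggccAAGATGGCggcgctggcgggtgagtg

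Among the other complex I genes Ndufa7, an accessory subunit, had the replicates that lay closest together among the 54 tested genes, at -0.07, -0.10 and -0.06, with an SD of 0.02. Ndufb4, an accessory subunit of the membrane arm, had 2 probes. The tested one gave -0.03, -0.17 and 0.30, which differ in sign, and the other gave -0.04 and -0.02 in replicates 1 and 2 and no value in replicate 3. Means of the complex I genes other than the 3 leading ones ran from -0.11, for the methyltransferase Ndufaf7, to 0.13, for the assembly factor Ndufaf4. Ndufaf4 gave 0.40, -0.09 and 0.09, and no other tested member exceeded 0.25 in replicate 1. Of the core subunits, which are conserved from bacteria and hold the electron path, Ndufs3 gave 0.05, -0.11 and -0.17 and Ndufv2 gave -0.16, -0.15 and 0.15, each on both sides of 0. The 19 structural subunits of complex I had a median of -0.04 and the 6 assembly factors -0.03.

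**Figure D1:**
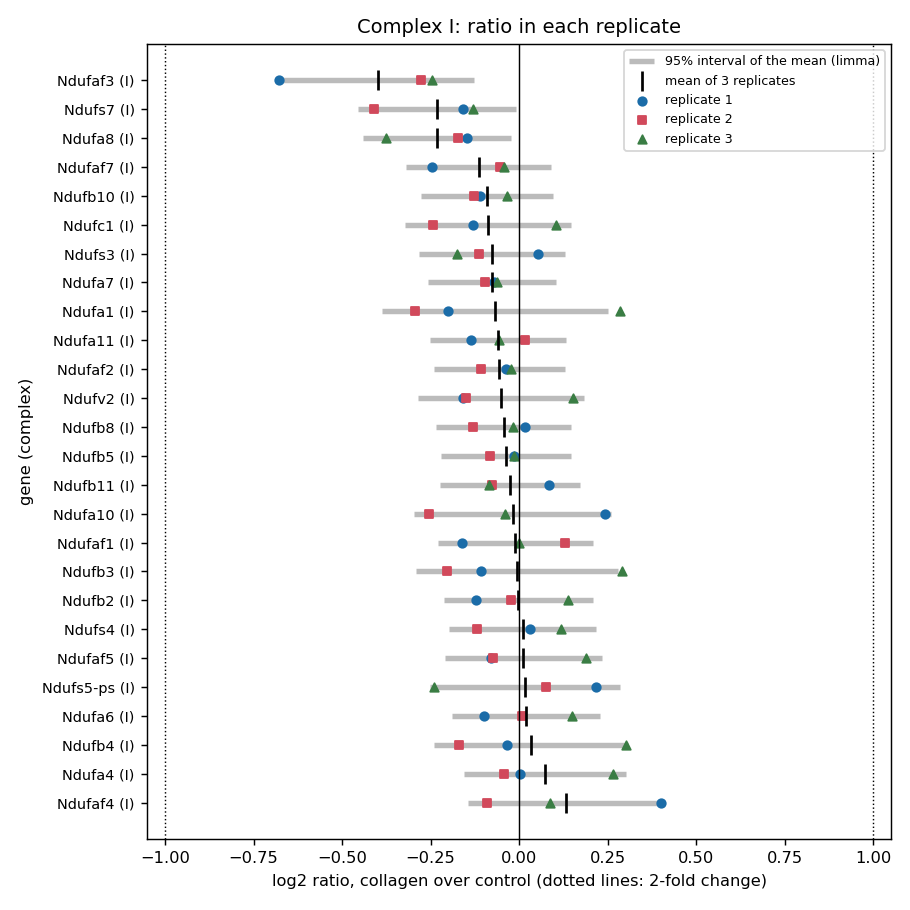
Each row is 1 of the 26 tested complex I genes, and the horizontal axis is the log2 ratio of collagen over control. Coloured symbols are the 3 replicates, the black bar is their mean and the grey line the 95% limma interval. Every interval stays inside the dotted lines of a 2-fold change, and those of Ndufaf3, Ndufs7 and Ndufa8 lie below 0.

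Complex II was represented by Sdhd alone, a subunit that anchors succinate dehydrogenase in the membrane. Its ratios were 0.02, -0.01 and -0.11, on both sides of 0, with a mean of -0.04 ± 0.07 (SD, n = 3).

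In complex III 5 of 6 tested genes had a mean below 0, against 59.2% of all probes. In all 3 replicates 2 were below 0, against 20.8% of all probes, and the median was -0.04. Uqcrfs1, the Rieske iron-sulphur protein that takes electrons from ubiquinol, had ratios of -0.05, -0.05 and -0.11, all below 0. Its mean was -0.07 ± 0.03 (SD, n = 3), and the interval, -0.25 to 0.11, included 0. Uqcrq, a small subunit, gave -0.12, -0.19 and -0.04 with its brighter probe, all below 0, and -0.0021, -0.18 and 0.06 with a second probe, which differ in sign. The 2 probes are listed under the same accession and differ on whether the replicates share a sign. Uqcrb, another small subunit, gave -0.12, -0.21 and 0.17.

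Uqcrc1, a core protein of complex III, had ratios of -0.01, 0.22 and -0.18. Its promoter, at chr9:108936398-108936697 on the plus strand, is shown because it holds the NRF-1 core on both strands of 1 site, from positions 30 and 32, in capitals.
Uqcrc1: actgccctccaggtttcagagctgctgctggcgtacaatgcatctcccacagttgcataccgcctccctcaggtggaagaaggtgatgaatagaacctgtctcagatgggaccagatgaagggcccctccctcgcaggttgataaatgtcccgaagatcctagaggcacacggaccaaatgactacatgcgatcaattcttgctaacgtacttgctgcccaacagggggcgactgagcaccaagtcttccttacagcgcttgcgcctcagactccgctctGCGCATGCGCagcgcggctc

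Complex IV was the most evenly divided. Of its 12 tested genes 7 had a mean below 0 and 5 above, 0 had the same sign in all 3 replicates, and the median was -0.01. Cox6c, a small nuclear-encoded subunit, had the highest mean of the 54 tested genes. Its ratios were 0.11, -0.03 and 0.52, with replicate 3 far above the others. The mean was 0.20 ± 0.29 (SD, n = 3), the interval ran from -0.11 to 0.50 and the adjusted limma p was 0.827. In replicate 3 the array with collagen in Cy3 gave 1.26 and the one with collagen in Cy5 -0.23. Without spots that had saturated pixels Cox6c could not be tested.

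Cox7b, a small structural subunit, gave -0.23, -0.18 and 0.05, with a mean of -0.12 ± 0.15 (SD, n = 3). Cox16, an assembly factor, gave 0.00, -0.04 and 0.26, with a mean of 0.07 ± 0.16 (SD, n = 3). Cox7c, a small subunit, had the replicates that lay farthest apart among the 54 tested genes, at -0.35, -0.08 and 0.46, with an SD of 0.41. In Cox7b, Cox16 and Cox7c alike, replicate 3 was the highest.

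**Figure D2:**
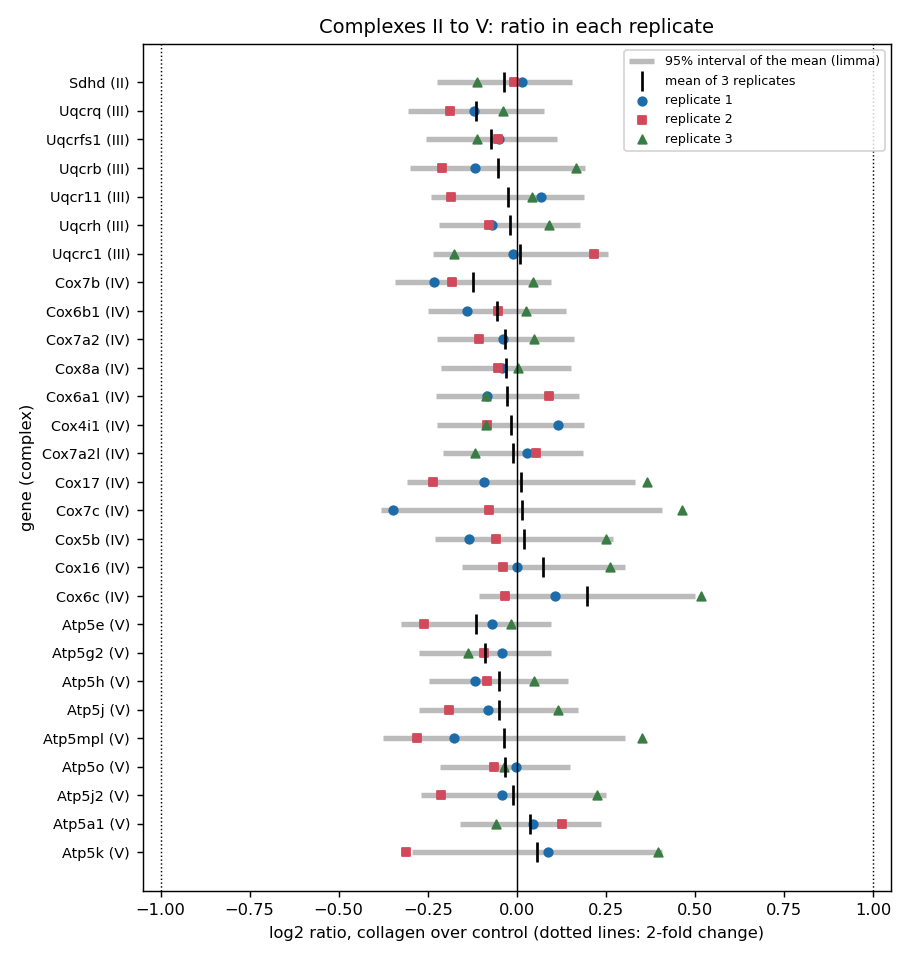
The 28 tested genes of complexes II to V are drawn with log2 ratios of collagen over control on the horizontal axis, 3 replicates as coloured symbols, their mean as a black bar and the 95% limma interval in grey. Cox7c, Atp5k and Atp5mpl show the widest spread, with replicate 3 at the high end, and every interval crosses 0.

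Several complex IV subunits have a form expressed mainly in heart and skeletal muscle and a form found in most tissues, and both kinds had probes on the arrays. Cox6a2, Cox7a1 and Cox8b, the muscle forms, had a ratio on 5, 7 and 4 of the 10 arrays. Their widely expressed partners Cox6a1, Cox7a2 and Cox8a had one on all 10. Cox7b2, a form known from testis, had a ratio on 3 arrays and Cox7b on 10. The number of arrays did not set the muscle forms apart from all widely expressed subunits, since Cox4i1 had a ratio on 6 arrays, Cox7c on 7 and Cox6c on 8. The muscle and testis forms were not tested, and a ratio needed signal in both channels.

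The widely expressed forms lay close to 0. Cox6a1 gave -0.08, 0.09 and -0.09, Cox7a2 gave -0.04, -0.11 and 0.05, and Cox8a gave -0.04, -0.05 and 0.00. Cox7a2l, a relative of Cox7a2 that takes part in joining complexes III and IV into supercomplexes, gave 0.03, 0.05 and -0.12. For none of these 4 genes did the replicates share a sign.

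**Figure D3:**
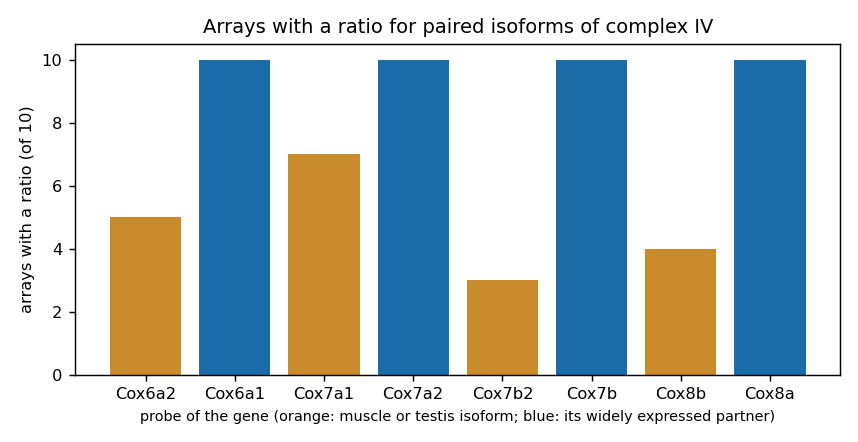
Bars count the arrays, of 10, on which a complex IV isoform had a ratio, with muscle or testis forms in orange and their widely expressed partners in blue. The partners reach 10 arrays and the muscle and testis forms between 3 and 7.

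The promoters of Cox6a1, Cox8a and Cox8b are shown because they set 2 widely expressed forms beside a muscle form. Capitals mark motif matches. Cox6a1, at chr5:115348909-115349208 on the minus strand, has the NRF-1 core on both strands from positions -162 and -160 and CTTCCGG, the ETS core on the other strand, at -16. Cox8a, at chr19:7217567-7217866 on the minus strand, has CTTCCGG at -5 and 32. Cox8b, at chr7:140900397-140900696 on the minus strand, has only TATAAA, at position 4, among the motifs searched.
Cox6a1: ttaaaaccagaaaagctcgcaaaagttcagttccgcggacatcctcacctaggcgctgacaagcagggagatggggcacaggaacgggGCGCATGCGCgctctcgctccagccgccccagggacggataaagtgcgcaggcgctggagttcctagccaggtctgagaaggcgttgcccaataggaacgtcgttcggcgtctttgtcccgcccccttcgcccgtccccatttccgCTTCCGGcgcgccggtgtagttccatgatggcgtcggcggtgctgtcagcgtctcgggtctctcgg
Cox8a: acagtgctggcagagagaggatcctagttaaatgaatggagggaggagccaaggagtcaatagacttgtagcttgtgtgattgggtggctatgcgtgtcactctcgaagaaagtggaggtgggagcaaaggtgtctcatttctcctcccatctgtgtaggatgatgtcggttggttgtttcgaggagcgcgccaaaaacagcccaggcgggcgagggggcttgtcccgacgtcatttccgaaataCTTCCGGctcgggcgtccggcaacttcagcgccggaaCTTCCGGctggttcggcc
Cox8b: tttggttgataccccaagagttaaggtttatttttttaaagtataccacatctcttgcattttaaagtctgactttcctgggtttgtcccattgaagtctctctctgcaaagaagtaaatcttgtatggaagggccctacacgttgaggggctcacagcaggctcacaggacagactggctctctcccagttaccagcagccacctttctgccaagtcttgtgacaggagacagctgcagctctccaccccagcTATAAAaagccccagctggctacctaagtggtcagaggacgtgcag

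In complex V 7 of 9 tested genes had a mean below 0, against 59.2% of all probes, and 2 above, and the median was -0.04. The replicate medians were -0.04, -0.19 and 0.05, so replicate 2 was the lowest and replicate 3 above 0. Atp5e, Atp5g2 and Atp5o were below 0 in all 3 replicates, as were 20.8% of all probes. Atp5e, the epsilon subunit of the catalytic head, gave -0.07, -0.26 and -0.02, with a mean of -0.12 ± 0.13 (SD, n = 3).

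Atp5g2 is one of several genes that encode the same mature subunit c, the protein of the rotating membrane ring, and it was the only one of them with a member probe. It gave -0.04, -0.09 and -0.14, all below 0, with a mean of -0.09 ± 0.05 (SD, n = 3) and an interval of -0.28 to 0.10. Like Ndufa8 it went with the dye on single arrays, from -0.07 to 0.49 with collagen in Cy5 and from -0.69 to -0.21 with collagen in Cy3. Its promoter, at chr15:102670998-102671297 on the minus strand, is shown because, like Ndufa8, the gene was below 0 in all 3 replicates and carries the NRF-1 core. The core is in capitals, on both strands, from positions -42 and -40. Ndufa8 and Atp5g2 do not stand for all genes with the core. Means of the 10 tested genes with it ran from -0.23 to 0.13. Their median was -0.01, against -0.04 for the 36 with a window that lacked it. A link of motif and ratio was not tested.
Atp5g2: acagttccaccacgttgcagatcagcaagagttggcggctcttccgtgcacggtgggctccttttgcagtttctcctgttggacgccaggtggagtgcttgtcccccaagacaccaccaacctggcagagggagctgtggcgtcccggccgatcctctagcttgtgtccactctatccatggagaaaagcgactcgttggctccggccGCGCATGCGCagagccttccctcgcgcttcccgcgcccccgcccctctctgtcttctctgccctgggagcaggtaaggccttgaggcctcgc

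Atp5a1, the alpha subunit of the catalytic head, gave 0.05, 0.13 and -0.06, and Atp5o, which links the head to the stalk, gave -0.0036, -0.06 and -0.03. Atp5mpl, a small protein bound to the membrane part, gave -0.18, -0.28 and 0.35. Atp5k, the subunit e that takes part in joining ATP synthases into dimers, gave 0.09, -0.31 and 0.40. The replicates differed in sign, and the mean was 0.06 ± 0.36 (SD, n = 3). The 44 structural subunits over all complexes had a median of -0.03, with 34 below 0, against 59.2% of all probes, and 10 above. The 9 assembly factors and related proteins had -0.01, with 5 below and 4 above.

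The replicates differed in how the members were placed. In replicate 1 38 genes were below 0, in replicate 2 46 and in replicate 3 26. Over all probes the shares below 0 were 62.6%, 57.9% and 53.2%. The medians of the members were -0.07, -0.09 and 0.01, against -0.04, -0.02 and -0.02 over all probes. Of the 54 tested genes, above 0.25 lay 1 gene in replicate 1, 0 in replicate 2 and 10 in replicate 3, and below -0.25 lay 2, 7 and 1. The same counts were not made over all probes, so they cannot be read as a trait of the members. Replicate 3 also rests on 1 dye-swap pair, and replicates 1 and 2 had 2 pairs each. Replicate 3 gave the highest of the 3 ratios for 35 of the 54 genes, or 64.81%, and for 42.06% of all probes. As a description across 54 genes, which are not independent, Pearson's r was 0.23 between replicates 1 and 2, -0.02 between 1 and 3 and -0.25 between 2 and 3. Single dye-swap pairs differed as well. In the second pair of replicate 2 all 26 tested complex I genes were below 0, with a median of -0.12, against 2163 of 3963 probes. In the first pair of that replicate 10 of 17 were, with -0.07, against 1473 of 2441 probes. In replicate 1 the first pair had 14 of 16 complex I genes below 0, against 1888 of 2382 probes, and the second 13 of 25, against 1759 of 3779 probes. Over all members the pair medians were -0.15 and -0.02 in replicate 1, -0.10 and -0.11 in replicate 2 and 0.01 in replicate 3. The same medians over all probes were -0.15, 0.01, -0.05, -0.01 and -0.02. Within replicate 1 the 2 pairs correlated at 0.07 over 31 genes, and within replicate 2 at 0.08 over 32 genes. Between pairs of different replicates the members' r ran from -0.29 to 0.38. Over all probes r was 0.04 within replicate 1 and 0.12 within replicate 2, and from -0.02 to 0.14 between replicates.

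The channels themselves differed for these genes, whichever RNA they held. On 8 of 8 arrays of replicates 1 and 2 the members' median of channel B over A was above 0, from 0.05 to 0.38, and on both arrays of replicate 3 it was below 0. Over all probes the array medians ran from -0.01 to 0.17 in replicates 1 and 2, and were 0.02 and 0.05 in replicate 3. Averaged over replicates, the channel ratio had a median of 0.07 for the members and 0.02 for all probes. It was above 0 for 40 genes, or 74.07%, against 54.6% of all probes, and in all 3 replicates for 15 genes, or 27.78%, against 25.8%. For 0 member genes did this channel ratio pass an adjusted limma p under 0.05, against 1.33% of all probes below 0 and 0% above. Fitted on single arrays with the replicate block, it did so for 7 of 54 member genes and 330 of 4139 probes. Without the block it did so for 8 member genes and 392 probes. Without background correction it did so for 2 member genes and 77 probes. The smallest adjusted p among members was 0.141, for Sdhd. The dye swap cancels such a ratio only as far as it is the same on both arrays of a pair, and its part in the collagen ratios was not tested.

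**Figure D4:**
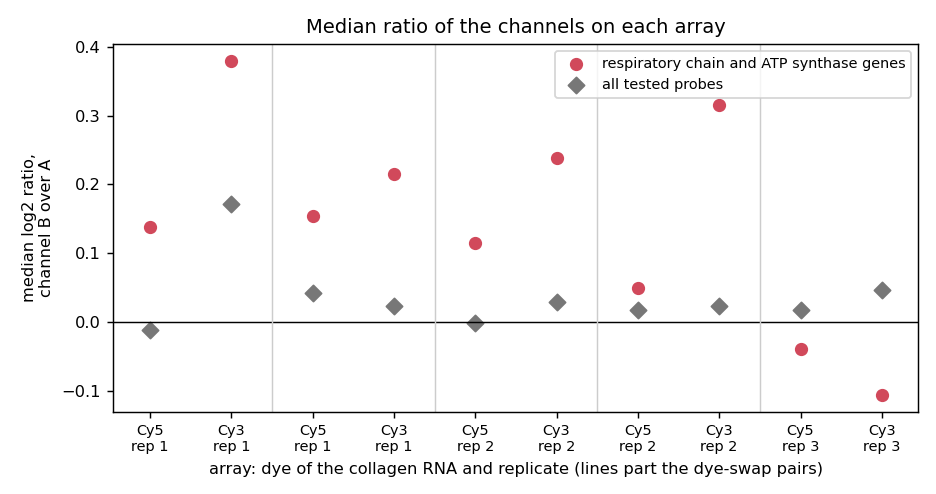
The vertical axis is the median log2 ratio of channel B over A on each of the 10 arrays, for member genes and for all tested probes, with vertical lines between dye-swap pairs. The members lie above 0 on the 8 arrays of replicates 1 and 2 and below 0 on the 2 arrays of replicate 3.

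Member spots were also more often saturated. A saturation factor below 1, read here as a spot with some saturated pixels, was found for 0% to 66.67% of the member spots of a scan, against 0.69% to 14.41% of all spots, and the members' share was the higher one in 25 of 29 scans. Without such spots 47 member genes were tested, 39 of them had a mean below 0 and the median was -0.03, against -0.02 over all probes. Single genes moved more, Ndufs7 as given above and Uqcrfs1 to -0.03. Cox6c, with the highest mean, Cox7c, with the widest spread, and Cox6a1 could no longer be tested without such spots.

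Genes of neighbouring pathways gave a background to these values, and none of them passed an adjusted limma p under 0.05. All 7 tested genes of glycolysis, which breaks glucose down in the cytosol, had a mean below 0, against 59.2% of all probes. In all 3 replicates 4 of the 7 were below 0, against 20.8% of all probes. Eno2 is in both counts and is also 1 of the neuronal genes given below, so the 2 lists overlap. The glycolysis median was -0.14, with replicate medians of -0.04, -0.11 and -0.21, so here replicate 3 was the lowest. Pfkl, a phosphofructokinase of this pathway, gave -0.08, -0.15 and -0.37. The citric acid cycle, which supplies NADH and succinate, had 5 genes below 0 and 5 above and a median of -0.01. Electron carriers and exchange proteins had 5 of 6 below 0 and a median of -0.05. Assembly factors outside the naming rule had 6 of 8 below 0 and a median of -0.08. Of the regulators of mitochondrial biogenesis 2 of 3 tested were below 0.

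Markers of cell types did not pass the test either. Neuronal genes had 4 of 6 below 0 and a median of -0.06, and dopamine neuron genes 2 of 5 below 0 and a median of 0.18. Th, which encodes the enzyme that limits dopamine synthesis, gave 0.03, 0.13 and 0.88, highest in replicate 3, and had the highest mean of the 5. Ddc gave 0.01, 0.27 and 0.26, and En1 gave -0.16, 0.03 and 0.77. Pitx3 was below 0 in all 3 replicates, at -0.125, -0.10 and -0.035, and Nr4a2 gave 0.39, -0.61 and -0.13. Microglial genes had 2 of 4 below 0 and a median of -0.02. Astrocyte and oligodendrocyte genes each had 2 of 3 below 0, with medians of -0.0017 and -0.04, and the 1 endothelial gene was at 0.02. None of the 4 listed red blood cell genes had a named probe. The part of these lists in the ratios of the respiratory genes was not tested.

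**Figure D5:**
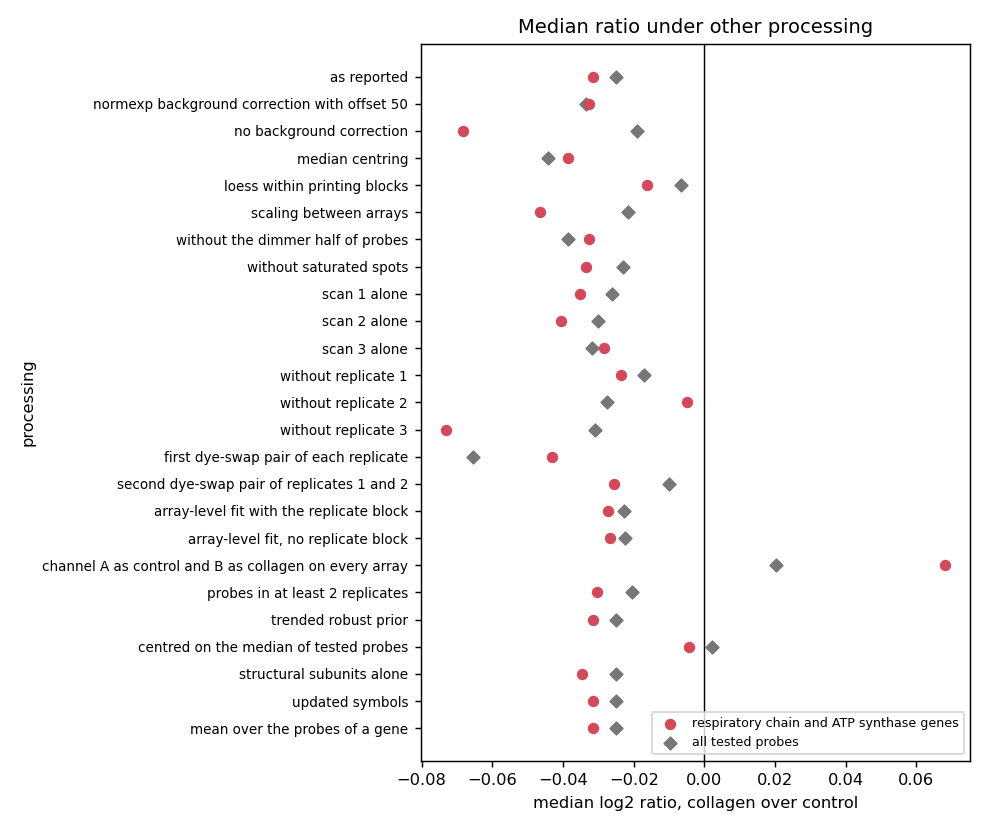
Each row is a way of processing the arrays, and the horizontal axis is the median log2 ratio of collagen over control for the member genes and for all tested probes. With the arrays turned by dye, the members' median lies between -0.0732 and -0.0044, and it is at 0.0682 where channel B is read as collagen on every array. The median of all tested probes is the lower one in some rows and the higher one in others.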

How the data were processed

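Spot intensities, which the authors had already corrected for background per the file headers, were taken from 29 scans of 10 arrays. The saturation factor is a fraction per spot, per the file headers. The authors' deposited value table holds a score per probe whose scale, centring and direction are unknown, and it served only as an alternative. No source used here names the scanner software.

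Spots flagged X, Y or Z, or with an intensity of 0 or less, in either channel were left out. Loess on brightness (limma 3.58.1, R 4.3.3, span 0.3, 4 iterations) normalised the ratios of each scan. The log2 ratios, computed from the deposited intensities, were averaged over scans, turned to collagen over control, averaged within each dye-swap pair that had both its arrays, and then within each replicate. Probes with a value in all 3 replicates, 4139, entered a two-sided limma test of a mean of 0 (lmFit, eBayes) with Benjamini-Hochberg adjustment. The brightest tested probe stood for a gene. Of the probes, 9066 had 1 gene symbol, 12 several and 1002 none, and a probe with several was not named. The number of arrays limits the precision.

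The members and the lists of related genes were chosen with earlier results of these data known. Genes were named by rule: the 3 largest mean ratios in each complex, means over 0.2 in size with one sign in all replicates, genes with over 1 measured probe, isoform families, genes past the test of the channel ratio, and the closest and farthest replicates. Uqcrc1, Ndufaf7, Ndufaf4, Ndufs3, Ndufv2, Atp5a1, Atp5o, Atp5mpl, Pfkl, Th and genes mentioned for a motif or a count were chosen after their values were seen. The other tested dopamine neuron genes are given beside Th to complete their list. The steps were tested on simulated data. The labels give arrays a replicate number, and arrays that share one were taken to carry the same RNAs, which was not tested. The pairing of each dye swap is part of the averaging. A longer spelling of the NRF-1 motif was searched first and is not shown. Alternatives changed the background correction, normalisation, scans, saturated and dim spots, replicates, pairs, unit of the fit, channel letters and membership.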

Additional observations from a re-analysis of the deposited data

Results flagged for a closer look

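Of 46 sets of arrays of one dye orientation, 7 had 1 array set apart from the rest by its gap to the nearest value. The rule would set apart about 1 in 20 sets of normal and independent values. That is not the rate for these sets. Many are of genes named for a large mean or a wide spread, which 1 far array can produce. All values are log2 ratios of collagen over control on single arrays. With collagen in Cy5, Ndufaf3 was at -3.11 on 1 array of replicate 1, and the next value was -0.56. With collagen in Cy3, the partner array of the same pair gave Ndufaf3 its highest value, 0.38, against a next value of -0.33. Ndufs7 was at -1.73 on 1 Cy5 array of replicate 2, and the next was -0.20. Sdhd was at -0.68 on 1 of its 4 Cy5 arrays, and the next was 0.28. Atp5g2 was at -0.0683 on the Cy5 array of replicate 3, below a next value of 0.33. Uqcrq was at -0.0139 on 1 Cy3 array, above a next value of -0.45. The median of all tested probes was -0.17 on the Cy3 array of the first pair of replicate 1, and the next was -0.05. The cause of these values was not tested.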

How the results depend on the processing

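The count of probes past an adjusted p under 0.05 was 0 as reported and 55 if A held control and B collagen RNA throughout. Under that reading 14 of the 54 members were below 0 and their median was 0.0682, and the channel ratio then called 0 probes. With the first dye-swap pair of each replicate 25 members were below 0, with fewer genes tested. Over the 23 alternatives with turned arrays that gave it, the members' median was below 0, between -0.0732 and -0.0044. The median of all tested probes was the lower one in some of these and the higher one in others. It was -0.0443 against -0.0385 for the members with median centring, and -0.0191 against -0.0683 without background correction. Leaving out 1 replicate gave 30 to 44 members below 0, with 30 without replicate 2 and 44 without replicate 3. Their median was then -0.0732 to -0.0049, against -0.0309 to -0.0171 over all probes. The share of all probes below 0 was not counted for the alternatives. The channel ratio called 55 probes as reported. It called 0 with normexp, 0 with median centring, 83 with scaling between arrays, 13 with scan 1 alone, 8 with scan 2 alone, 18 with the second dye-swap pair, an alternative chosen after seeing the data, 90 with a trended robust prior, and 28 to 218 with 1 replicate left out. Fitted on arrays with the replicate block it called 330, at a consensus correlation of 0.04, and without the block 392, while the replicate block left the count for collagen over control at 0. Of 445 values of named genes 34 changed sign, 0 of them for Ndufaf3, Ndufs7 or Ndufa8. Those 3 were named for having 1 sign in all 3 replicates, so leaving out 1 replicate could not turn their sign. Some alternatives, such as the trended robust prior, left every mean as it was. The count of 0 therefore does not set the 3 apart from the other named genes. Ndufaf3, Ndufs7 and Ndufa8 ranged from -0.56 to -0.14, -0.39 to -0.08 and -0.34 to -0.03, in that order. Ndufaf3 gave no value without the dimmer probes or with structural subunits alone. With channel letters fixed 15 of 20 values of named genes changed sign. The causes were not tested. The low number of replicates and the unstated channel letters limit every direction given.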
